A study of Homo sapiens with 36 samples.

Results

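The genes described here are 50 named components of the mitotic machinery, a list of gene symbols that was matched to 50 of 50 genes among 59041 genes with a matched transcript. They were followed by RNA sequencing in 3 human acute myeloid leukemia lines, HL60, MOLM13 and OCIAML3, each cultured for 24 h in one of 4 ways: DMSO (the solvent control), cytarabine at 0.1 µM, daunorubicin at 0.02 µM, or the same doses of the pair together (the combination). Each of the 12 groups held 3 libraries labelled as biological replicates, 36 in all, and the labels give every library the genotype WT. HL60 and MOLM13 cells grew in RPMI and OCIAML3 cells in alpha-MEM, so line and medium cannot be told apart where OCIAML3 is set beside the others. Cytarabine, a cytidine analog, stalls replication forks once built into DNA. Daunorubicin, of the anthracycline class, slides between base pairs and leaves breaks held by topoisomerase II. The comparison asks which parts of the mitotic program change with each drug, with both, and in which line.

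Mitotic genes are transcribed in waves, with most of these transcripts accumulating in G2 and falling after division. Cyclin-dependent kinase 1 with cyclin B starts mitosis, Polo-like and Aurora kinases build the spindle, the checkpoint holds the anaphase-promoting complex until every kinetochore is attached, and separase then cuts cohesin so that sister chromatids part. Because the transcripts are tied to the cell cycle, a fall in bulk RNA can come from fewer cells in G2 and M or from less RNA in each cell, and these cannot be told apart here.

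Many promoters of this program carry a cell cycle homology region, read here as the letters TTTGAA, together with CCAAT boxes. In RefSeq promoter windows of 300 bases on GRCh38.p14, from 250 bases before the start of transcription to 50 after it, TTTGAA was found on either strand in 28 of the 42 members with an entry (66.7%) and in 18.2% of all 27305 genes. CCAAT was found on either strand in 33 of these 42 members (78.6%) and in 39.7% of all genes, and both motifs in 23 members (54.8%) against 7.26% of all genes. Matches could overlap, and a match describes letters and not a bound factor. The 140 bases before the start follow for 4 members that fell in HL60 cells with the combination (CDC20, PLK1, CCNB2, BUB1) and 2 that rose (ESPL1, NDC80), with every TTTGAA or CCAAT and their reverse complements in capitals.
CDC20 (chr1:43358841-43358980, plus strand): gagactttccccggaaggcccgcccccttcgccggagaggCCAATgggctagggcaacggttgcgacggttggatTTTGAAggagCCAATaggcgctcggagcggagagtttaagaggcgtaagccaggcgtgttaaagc
PLK1 (chr16:23678749-23678888, plus strand): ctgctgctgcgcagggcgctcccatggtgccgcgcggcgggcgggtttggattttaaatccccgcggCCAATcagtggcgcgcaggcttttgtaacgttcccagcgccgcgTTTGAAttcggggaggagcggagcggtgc
CCNB2 (chr15:59105006-59105145, plus strand): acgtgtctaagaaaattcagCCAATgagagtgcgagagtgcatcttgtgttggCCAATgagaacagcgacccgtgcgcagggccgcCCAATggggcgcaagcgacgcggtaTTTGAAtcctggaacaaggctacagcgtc
BUB1 (chr2:110678064-110678203, minus strand): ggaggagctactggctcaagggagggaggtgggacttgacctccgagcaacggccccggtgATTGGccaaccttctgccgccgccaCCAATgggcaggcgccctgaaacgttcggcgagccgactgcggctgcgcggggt
ESPL1 (chr12:53268159-53268298, plus strand): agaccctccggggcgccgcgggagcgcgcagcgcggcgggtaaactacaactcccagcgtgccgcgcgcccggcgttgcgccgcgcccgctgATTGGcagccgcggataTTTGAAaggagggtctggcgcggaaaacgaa
NDC80 (chr18:2571417-2571556, plus strand): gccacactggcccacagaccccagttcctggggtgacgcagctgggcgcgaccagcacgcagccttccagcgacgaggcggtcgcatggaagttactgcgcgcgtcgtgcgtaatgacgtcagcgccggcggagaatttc
Both kinds of motif stood in the stretches of CDC20, PLK1, CCNB2 and ESPL1, BUB1 had CCAAT letters alone, and the NDC80 stretch had neither. In NDC80 the reverse complement of TTTGAA begins at position -3 and crosses the start, so that the stretch cuts it. NDC80 is therefore counted among the members that held TTTGAA. Among the members that fell in HL60 cells with the combination, 14 of 21 with a promoter entry held TTTGAA, among those that rose 6 of 11, and among the remaining members 8 of 10.

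The libraries held 25067734 to 47322144 estimated counts, with a median of 32194478, and all 50 members passed the low-count filter in each line. Levels within a line are given as CPM, counts scaled to the library size with TMM factors (trimmed mean of M values), and levels between genes or lines as TPM, which corrects for transcript length. The 3 pan-leukocyte markers reached 1 TPM in every line, the 3 markers of HOX-expressing lines did so in MOLM13 and OCIAML3 and 0 of 3 in HL60 cells, and 2 of 2 OCIAML3 markers did so in OCIAML3 alone. Of 5 promyelocyte markers meant for HL60, 3 reached 1 TPM in HL60 and 4 in each of the other lines, and AZU1 was listed at 0. Epithelial markers summed to at most 12.5 TPM (in MOLM13) and T cell, B cell, erythroid and fibroblast markers to at most 15.9 TPM (B cell, in HL60). Mitochondrial genes held 3.95% to 7.72% of the counts. In OCIAML3 cells, cytarabine replicate 3 and combination replicate 3 stood apart from their groups in opposite ways (correlation of their deviations over 9489 genes -0.635), and OCIAML3 results are given with and without both. The library labelled combination replicate 3 went against its label: its log2 CPM values differed by a root mean square of 0.173 from the mean of cytarabine replicates 1 and 2 and by 0.545 from that of combination replicates 1 and 2. The library labelled cytarabine replicate 3 lay nearer to its own group, at 0.251 from cytarabine replicates 1 and 2 and 0.345 from combination replicates 1 and 2. The labels may have been exchanged in part or in full, which was not tested, and they were kept as given. No pair of replicates agreed within sampling noise, so all libraries were counted, and p-values measure the spread between these replicates only.

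In DMSO-treated cells every member was expressed, but the levels spanned a wide range. The lowest, median and highest TPM over the 50 members were 6.05, 53.8 and 227 in HL60, 3.9, 43.7 and 243 in MOLM13, and 4.53, 66.4 and 271 in OCIAML3. The top member differed between lines: PTTG1 (securin, the inhibitor of separase) with 227 ± 30.6 TPM (SD, n = 3) in HL60, BUB3 (a checkpoint protein) with 243 ± 17.2 TPM in MOLM13 and UBE2C (the ubiquitin-conjugating enzyme of the anaphase-promoting complex) with 271 ± 10.3 TPM in OCIAML3. PTTG1 and BUB3 in HL60 (211 ± 10.8 TPM) differed by less than the SD of PTTG1. SPC25 (an NDC80 complex subunit), KIF18A (a kinesin that limits chromosome oscillation) and CDC25C (a phosphatase that activates CDK1) were among the 6 lowest in all 3 lines. So were SGO1 (shugoshin, a protector of centromeric cohesin) and the kinesin CENPE.

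**Figure D1:**
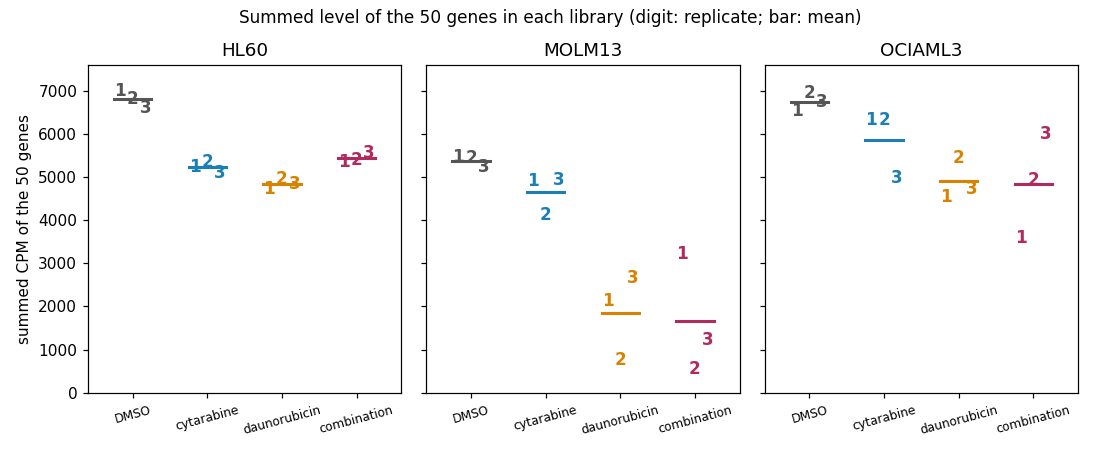
Summed CPM of the 50 members (vertical axis, from 0) in each of the 36 libraries by cell line and treatment, with digits for replicates and bars for group means. HL60 groups were tight and all treated libraries lay below DMSO, whereas MOLM13 daunorubicin and combination libraries ranged from 553 to 3218.

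Added up, the members were lower after treatment in each line, as the plot of summed levels shows. In HL60 cells the sum was 6794 ± 200.3 CPM (SD, n = 3) with DMSO, 5220 ± 119 under cytarabine, 4832 ± 117 under daunorubicin and 5435 ± 111 under the combination, which is 76.8%, 71.1% and 80.0% of the DMSO mean. In MOLM13 cells it was 5377 ± 135 CPM with DMSO, 4653 ± 471 under cytarabine, 1849 ± 991 under daunorubicin and 1661 ± 1387 under the combination. In OCIAML3 cells it was 6737 ± 216 CPM with DMSO, 5861 ± 774 under cytarabine, 4902 ± 476 under daunorubicin and 4841 ± 1212 under the combination. These OCIAML3 means include the 2 libraries that stood apart. Cytarabine replicates 1, 2 and 3 were at 93.6%, 93.6% and 73.7% of the DMSO mean. Combination replicates 1, 2 and 3 were at 53.2%, 73.3% and 89.1%. All 9 treated HL60 libraries lay below the lowest DMSO library (6585 CPM), and the 3 daunorubicin libraries lay below all other HL60 libraries.

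**Figure D2:**
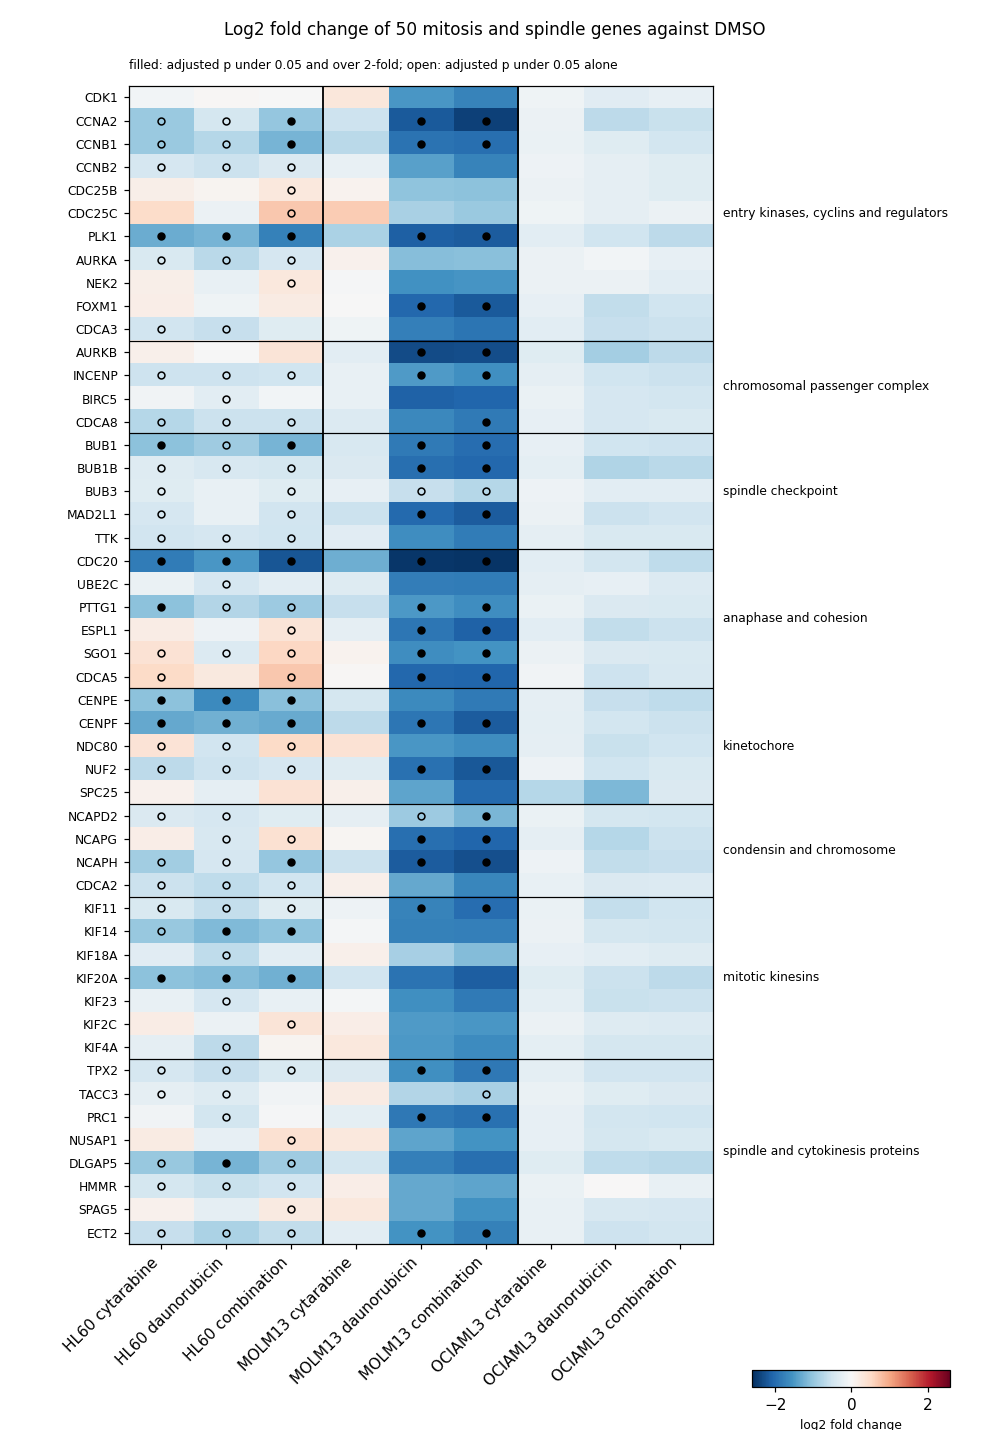
Log2 fold change against DMSO (color) of the 50 members (rows, grouped by role) in 9 comparisons (columns), with open circles for an adjusted p under 0.05 and filled circles where the change was also over 2-fold. MOLM13 columns for daunorubicin and the combination are blue in all 50 rows, HL60 columns mix blue and red rows, and OCIAML3 columns hold no circle.

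In HL60 cells daunorubicin lowered 36 of 50 members at an adjusted p under 0.05 by edgeR, where 9.14% of all 15608 genes tested were lower, and 0 rose, where 12.8% of all genes did (1 member was higher at an unadjusted p under 0.05, and CDCA5 rose by DESeq2). In a fit with the replicate number as a block 37 fell (18.3% of all genes) and 1, again CDCA5, rose (19.3%). Without the block, the added demand of an absolute log2 fold change over 1 left 7 that fell (0.538% of all genes were lower by this rule). The median log2 fold change of the members was -0.47, against 0.01 over all genes.

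The member with the largest fall was CENPE, the kinesin that carries chromosomes to the metaphase plate. It was at 103, 95.1 and 90.1 CPM in the DMSO libraries and 26.9, 35.1 and 29.7 CPM after daunorubicin, a log2 fold change of -1.65 ± 0.13, adjusted p = 2.44e-05. Here and in what follows, a log2 fold change is given ± its standard error, with p from edgeR. CDC20, which switches on the anaphase-promoting complex, stood at 231, 229.9 and 235 CPM with DMSO and 74.6, 65.8 and 104 CPM with daunorubicin (-1.51 ± 0.14, adjusted p = 4.28e-05). For both genes all treated libraries lay far below all DMSO libraries, and daunorubicin replicate 3 was the highest treated library for CDC20. The others past both thresholds were CENPF (-1.25 ± 0.15), a kinetochore and nuclear matrix protein, DLGAP5 (-1.22 ± 0.11), which stabilizes kinetochore fibers, PLK1 (-1.20 ± 0.10), KIF14 (-1.14 ± 0.17) and KIF20A (-1.12 ± 0.13), both kinesins of cytokinesis.

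The starters of mitosis did not move together after daunorubicin. CDK1 was at 169, 143 and 147 CPM with DMSO and 155, 157 and 155 CPM with daunorubicin, with overlapping groups and a log2 fold change of 0.02 ± 0.11, adjusted p = 0.901, whose 95% interval ran from -0.22 to 0.27. CDCA5 (sororin, which stabilizes cohesin) and CDC25B (a phosphatase that activates CDK1) had the highest values, 0.25 ± 0.09, adjusted p = 0.0592 and 0.08 ± 0.11, adjusted p = 0.655, and CDCA5 was at 192, 174 and 183 CPM with DMSO and 212, 229 and 209.9 CPM with daunorubicin. CCNB1 (cyclin B1, the partner of CDK1) fell from 166, 151 and 149 to 90, 88 and 99.1 CPM (-0.75 ± 0.09, adjusted p = 0.00021). AURKA, the centrosomal Aurora kinase, fell by 0.69 on the log2 scale (from 124, 120.4 and 129 to 69.9, 78.2 and 82.7 CPM, adjusted p = 0.000253). AURKB, the Aurora kinase of the chromosomal passenger complex, had a value of -0.01 ± 0.14, adjusted p = 0.961, and its libraries overlapped (76.4, 72 and 71.3 CPM against 80.7, 67.2 and 69.8 CPM). FOXM1, the transcription factor that drives many G2 and M genes, was at 119, 135 and 143 CPM with DMSO and 124, 119 and 126 CPM with daunorubicin (-0.11 ± 0.10, adjusted p = 0.458). Of the entry kinases, cyclins and regulators, 6 of 11 fell, of the kinesins 6 of 7, of the condensin and chromosome group 4 of 4 and of the spindle and cytokinesis proteins 6 of 8.

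Cytarabine lowered 29 members in HL60 cells at an adjusted p under 0.05 and raised 3, where 22.0% of all genes were lower and 23.6% higher. With the replicate block 32 fell and 6 rose (28.5% and 28.4% of all genes), and by DESeq2 30 and 6. By both thresholds 7 fell (3.12% of all genes). CDC20 changed most, from 231, 229.9 and 235 CPM to 63.1, 70.5 and 64.4 CPM (-1.81 ± 0.15, adjusted p = 2.31e-06), and was followed by CENPF (398, 439 and 386 against 151, 174 and 163 CPM) and PLK1 (181, 183 and 174 against 73.8, 82.6 and 64.4 CPM). KIF20A, BUB1, PTTG1 and CENPE also fell past both thresholds, with log2 fold changes from -1.08 to -1.06.

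The 3 members that rose with cytarabine in the fit without the block were CDCA5, SGO1 and NDC80, a smaller share than that of all genes. CDCA5 rose from 192, 174 and 183 to 274, 239 and 264 CPM (0.50 ± 0.09, adjusted p = 0.000492). SGO1 rose from 29.5, 26.9 and 22.1 to 36.5, 32.8 and 32.8 CPM (0.38 ± 0.11, adjusted p = 0.015). NDC80, the microtubule-binding subunit of the outer kinetochore, rose from 110.3, 94.3 and 86.6 to 137, 116 and 118 CPM (0.35 ± 0.13, adjusted p = 0.0394). In each of these 3 genes every cytarabine library lay above every DMSO library. The same held for CDC25C, at 17.8, 15.4 and 15.8 CPM, which did not pass (0.49 ± 0.19, adjusted p = 0.0503) without the block and passed with it (0.50 ± 0.13, adjusted p = 0.00617), as did KIF2C and NUSAP1 in the same direction. The spindle checkpoint was the only role of the 8 in which every member fell with cytarabine: 5 of 5, from BUB3 (-0.32 ± 0.09) to BUB1 (-1.06 ± 0.12).

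With the combination, HL60 cells showed both directions. At an adjusted p under 0.05, 26 members fell (25.3% of all genes were lower) and 11 rose (28.1% were higher). The share of members that rose was below that of all genes. Past both thresholds 10 fell (6.29% of all genes), against 7 with cytarabine (3.12%) and 7 with daunorubicin (0.538%). The share of all genes that fell by this rule was thus also highest with the combination. With the replicate block 30 fell and 13 rose (30.5% and 32.5% of all genes), and the counts past both thresholds were again 7 with cytarabine (3.47% of all genes), 7 with daunorubicin (0.788%) and 10 with the combination (6.73%). CDC20 reached its lowest level, 52.5, 43.8 and 52 CPM, a log2 fold change of -2.23 ± 0.15, adjusted p = 5.31e-07. PLK1 was at 56.6, 53.3 and 50.3 CPM, below all libraries of the other HL60 groups (-1.75 ± 0.10, adjusted p = 3.11e-07). CENPF was at 130.0, 167 and 197 CPM (-1.31 ± 0.15, adjusted p = 1.05e-05), and its libraries overlapped those of both single drugs. KIF20A, BUB1, CCNB1, CENPE, KIF14, NCAPH (a condensin subunit) and CCNA2 (cyclin A2) were the others past both thresholds. BUB1, the checkpoint kinase, was at 150.0, 147 and 137 CPM with DMSO and 54.2, 61.9 and 72.2 CPM with the combination.

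The largest rise was that of CDC25C, from 13.7, 11.2 and 10.1 to 20.7, 19.3 and 17.1 CPM (0.71 ± 0.19, adjusted p = 0.0064). CDCA5 rose from 192, 174 and 183 to 315, 294 and 283 CPM (0.70 ± 0.09, adjusted p = 2.34e-05), and SGO1 to 36.7, 38.6 and 38.7 CPM (0.54 ± 0.11, adjusted p = 0.00133). In all 3 genes the combination libraries lay above the DMSO libraries without overlap. NDC80, NUSAP1 (a microtubule bundler), NCAPG (a condensin subunit), ESPL1 (separase), KIF2C (a microtubule depolymerase), CDC25B, NEK2 (a centrosome kinase) and SPAG5 (astrin) had log2 fold changes from 0.24 to 0.49 and passed. CDK1 overlapped its DMSO libraries (-0.01 ± 0.11, adjusted p = 0.963), with 153, 133 and 172 CPM. UBE2C, at 57, 50.4 and 52.6 CPM with DMSO and 51, 40.2 and 41.3 CPM with the combination, did not pass (-0.27 ± 0.11, adjusted p = 0.0586) but fell in the fit with the replicate block (-0.28 ± 0.08, adjusted p = 0.0107), in which AURKB and FOXM1 rose (0.32 ± 0.08 and 0.21 ± 0.08). PTTG1 fell to 68.3, 52.8 and 51.8 CPM (-0.94 ± 0.16, adjusted p = 0.000226).

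The single drugs were also set against each other within HL60 cells, at the doses given. Daunorubicin libraries were lower than cytarabine libraries for 13 members and higher for 2 at an adjusted p under 0.05, where 7.87% of all genes were lower and 8.62% higher. A replicate block gave 18 and 5 (15.6% and 18.2% of all genes). The 2-fold demand was passed by 0 of 50 (against 3.28% of all genes lower), with 0 past both thresholds by DESeq2. At an unadjusted p under 0.05 there were 23 members, where 4920 of all 15608 genes passed. The widest gaps were in NDC80, at 137, 116 and 118 CPM with cytarabine and 73.4, 76.6 and 56.8 CPM with daunorubicin (-0.84 ± 0.13, adjusted p = 0.00196), and in SGO1, at 36.5, 32.8 and 32.8 CPM against 19.9, 21.5 and 20.3 CPM (-0.73 ± 0.11, adjusted p = 0.00221). CDC25C (-0.64 ± 0.19, adjusted p = 0.0353) and CENPE followed (-0.59 ± 0.13, adjusted p = 0.00939). CCNA2 (0.52 ± 0.14, adjusted p = 0.0272) and NCAPH (0.46 ± 0.10, adjusted p = 0.0102) were lower with cytarabine instead, and their groups did not overlap (119, 131 and 147 against 182, 175 and 211 CPM for CCNA2).

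**Figure D3:**
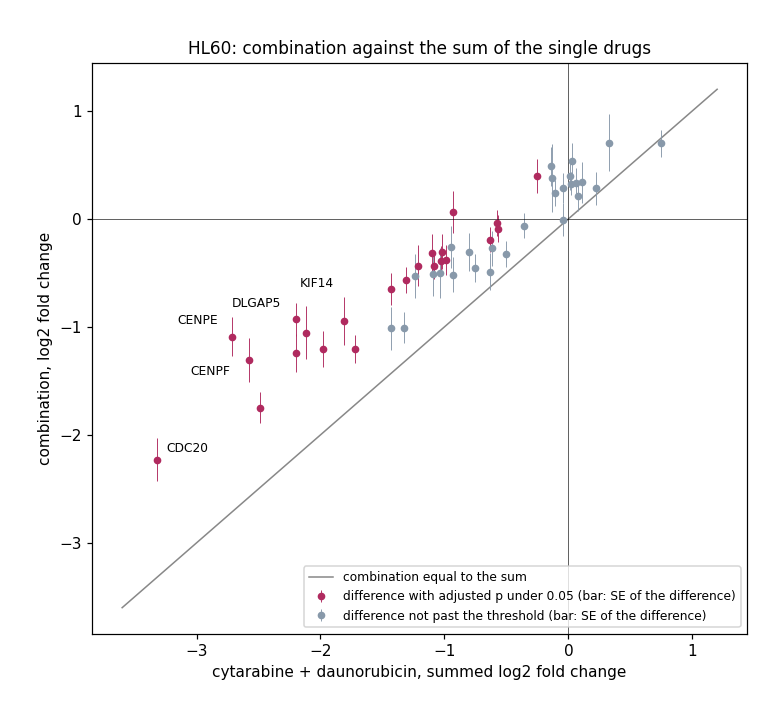
Log2 fold change of each member in HL60 cells with the combination (vertical axis) against the sum of its log2 fold changes with the single drugs (horizontal axis), with the standard error of the difference as bars and magenta points for an adjusted p under 0.05. Of the 50 points 49 lie above the line of equality, and the labelled genes lie more than 1 above it.

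A combination that only added the single-drug changes would lie on the line of equality in the plot of the combination against the sum. In HL60 cells the combination lay above the sum for 23 members at an adjusted p under 0.05 and below it for 0, where 1.24% of all genes lay above. The median difference of the members was 0.53 on the log2 scale (-0.01 over all genes), and 0 members lay below the sum at an unadjusted p under 0.05 or by DESeq2. The comparison uses the same 3 DMSO libraries for both drugs, so its error includes theirs. The 5 differences over 1 were CENPE (1.62 ± 0.18, adjusted p = 0.000805), DLGAP5 (1.27 ± 0.15, adjusted p = 0.00112), CENPF (1.27 ± 0.21, adjusted p = 0.00552), CDC20 (1.09 ± 0.20, adjusted p = 0.00975) and KIF14 (1.06 ± 0.25, adjusted p = 0.0262). CENPE was at 44.7, 46.7 and 46.5 CPM with cytarabine and 26.9, 35.1 and 29.7 CPM with daunorubicin. With the combination it was at 37.2, 50.1 and 47.8 CPM, so that these libraries sat with those of cytarabine. This was not so for every gene above the sum. The combination libraries of CDC20 (52.5, 43.8 and 52 CPM) lay below every library of both single drugs. The same held for PLK1, which also passed (0.74 ± 0.14, adjusted p = 0.0126). KIF4A, a chromosome-bound kinesin, was at 61.3, 73.7 and 77.1 CPM under cytarabine, 46.8, 58.9 and 49.7 under daunorubicin and 70, 90.4 and 102 under the combination (0.99 ± 0.20, adjusted p = 0.0129). By role, 5 of 7 kinesins, 5 of 8 spindle and cytokinesis proteins, 5 of 11 entry regulators and 3 of 5 kinetochore members passed. The remaining roles had fewer: CDCA8 alone of the chromosomal passenger complex, BUB1 alone of the checkpoint, NCAPG alone of the condensin group, and CDC20 and PTTG1 of the anaphase and cohesion group. With the replicate block the count was 34 (7.32% of all genes), and with an offset for transcript length it was 13. Leaving out single libraries gave 11 (without daunorubicin replicate 1) to 22, with 13 to 15 without cytarabine replicate 3, combination replicate 3, daunorubicin replicate 2 or any 1 of the DMSO libraries.

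MOLM13 cells gave the largest falls and the widest spread between replicates. All 50 members had negative log2 fold changes with daunorubicin (median -1.64, against 0.07 over all 16184 genes) and with the combination (median -1.83, against 0.07). With daunorubicin 24 members fell at an adjusted p under 0.05 (25.7% of all genes were lower), 22 of them also by over 2-fold (5.71% of all genes). With the combination 26 fell (26.0% of all genes), 24 of them by over 2-fold (5.61% of all genes). With the replicate number as a block these counts past both thresholds were 34 (6.04% of all genes) and 44 (5.96%). By the check used for HL60, over genes of at least 10 CPM, the numbers paired the DMSO and daunorubicin libraries (correlations 0.216, 0.133 and 0.111) but not the DMSO and combination libraries (0.137, -0.0300 and 0.0352). Over all genes kept the correlations of the DMSO and daunorubicin libraries were weaker, at 0.0580, 0.0199 and 0.0639. The calls that follow are without the block unless it is named. In 49 of 50 members every daunorubicin library lay below every DMSO library, which held for 30.4% of all genes, and the same count held with the combination, against 29.3% of all genes. SPC25 with daunorubicin and CDC25C with the combination were the exceptions.

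**Figure D4:**
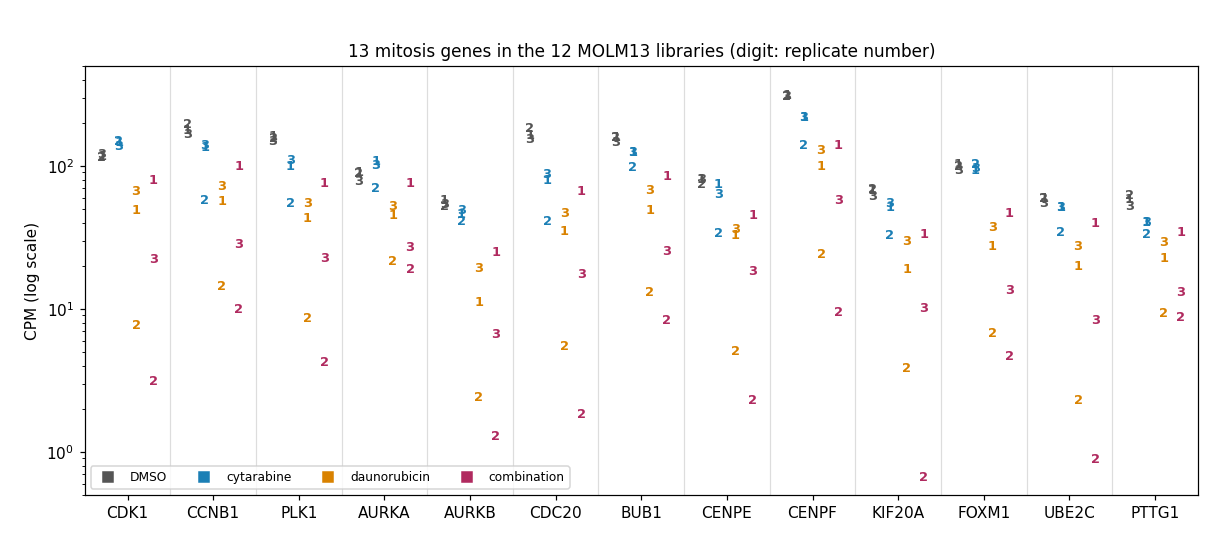
CPM on a log axis of 13 members in the 12 MOLM13 libraries, with the replicate number as the symbol and the treatment as its color. Replicate 2 is the lowest in every daunorubicin and combination group, and combination replicate 1 is the highest of its group in all 13 genes.

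The libraries of a treated group differed from each other by far more in these genes than in others. The median SD of log2 CPM between the 3 replicates was 1.35 over the members with daunorubicin and 1.82 with the combination, against 0.132 and 0.171 over all genes of at least 1 CPM. With DMSO it was 0.0743 against 0.108, and with cytarabine 0.161 against 0.111. Daunorubicin replicate 2 was the lowest of its group for 50 of 50 members and daunorubicin replicate 3 the highest for 48. Combination replicate 2 was the lowest for 50 of 50 and combination replicate 1 the highest for 49. The summed level was 2130, 748 and 2668 CPM in daunorubicin replicates 1, 2 and 3 and 3218, 553 and 1213 CPM in combination replicates 1, 2 and 3, against 5465, 5444 and 5222 CPM with DMSO. The share of mitochondrial counts was 6.18%, 6.1% and 6.18% in the daunorubicin replicates and 5.91%, 6.31% and 6.75% in those of the combination, and the totals were 29022802, 26514404 and 25067734 estimated counts with daunorubicin and 33652473, 28267974 and 28347811 with the combination. The part of these measures in the spread was not tested.

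CDC20 shows the order of the libraries. It was at 162, 184 and 154 CPM with DMSO, 79.4, 41.2 and 87 CPM with cytarabine, 34.6, 5.43 and 46.5 CPM with daunorubicin and 65.9, 1.84 and 17.3 CPM with the combination. Its log2 fold changes were -2.53 ± 0.93, adjusted p = 0.0379 with daunorubicin and -2.55 ± 0.93, adjusted p = 0.0363 with the combination, the largest falls among the members. AURKB was next with daunorubicin (-2.33 ± 0.79, adjusted p = 0.0281), from 57.4, 51.8 and 54.1 CPM to 11, 2.42 and 19.1 CPM, and was at 24.8, 1.29 and 6.58 CPM with the combination. CCNA2 fell from 208, 205 and 191 CPM with DMSO to 49.9, 13.5 and 69 with daunorubicin and to 85, 6.28 and 21.1 with the combination (-2.19 ± 0.73 and -2.42 ± 0.74). In all 3 genes the treated groups lay wholly below DMSO, and their highest and lowest libraries differed several-fold.

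The kinases and cyclins of entry followed the same order of libraries. PLK1 was at 161, 155 and 148 CPM with DMSO, 43.1, 8.52 and 54.9 with daunorubicin and 75.7, 4.22 and 22.5 with the combination (-2.12 ± 0.81, adjusted p = 0.0442 and -2.17 ± 0.81, adjusted p = 0.0399). CCNB1 was at 178, 193 and 165 CPM with DMSO, at 56, 14.3 and 71.5 with daunorubicin and at 99.1, 9.96 and 28.1 with the combination (-1.92 ± 0.72, adjusted p = 0.0427 and -1.96 ± 0.72, adjusted p = 0.0386). FOXM1 was at 102, 98.9 and 92.8 CPM with DMSO, at 27.5, 6.74 and 37.1 with daunorubicin and at 46.2, 4.67 and 13.4 with the combination (-2.04 ± 0.68, adjusted p = 0.0255 and -2.19 ± 0.68, adjusted p = 0.0185). These 3 genes passed both thresholds with both treatments. CDK1 did not, although its treated libraries, 49, 7.69 and 65.8 CPM with daunorubicin and 79.3, 3.09 and 22.2 CPM with the combination, all lay below 116, 114 and 119 CPM with DMSO (-1.51 ± 0.85, adjusted p = 0.154 and -1.73 ± 0.85, adjusted p = 0.106). AURKA, at 89.7, 88.2 and 78.4 CPM with DMSO and 74.8, 18.8 and 26.7 CPM with the combination, did not pass either (-1.09 ± 0.44, adjusted p = 0.0579). With the replicate block AURKA fell with both treatments (-1.22 ± 0.36 and -1.30 ± 0.36), and CDK1 with the combination (-2.28 ± 0.84, adjusted p = 0.0432).

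Checkpoint and anaphase genes fell as well. MAD2L1, which inhibits CDC20 at unattached kinetochores, was at 152, 131 and 139.8 CPM with DMSO, 36.4, 17.1 and 50.4 with daunorubicin and 57.9, 15.6 and 20.8 with the combination (-2.02 ± 0.45, adjusted p = 0.00287 and -2.16 ± 0.45, adjusted p = 0.00196). BUB1 was at 158, 159 and 145 CPM with DMSO, at 48.6, 13.1 and 67.5 with daunorubicin and at 83.7, 8.3 and 25.3 with the combination (-1.84 ± 0.68 and -1.97 ± 0.68). BUB3 had the smallest change and the smallest error of the members, from 295, 261 and 289 CPM with DMSO to 206, 151 and 204 with daunorubicin and to 217, 137 and 151 with the combination (-0.59 ± 0.16, adjusted p = 0.00813 and -0.74 ± 0.16, adjusted p = 0.00214), and passed without reaching 2-fold. In the anaphase and cohesion group 5 of 6 fell past both thresholds with each treatment, the exception being UBE2C, whose libraries spread from 19.9, 2.3 and 27.3 CPM with daunorubicin to 39.7, 0.882 and 8.24 CPM with the combination, against 59, 59.5 and 54.2 CPM with DMSO. PTTG1 fell from 57.8, 62.1 and 51.7 CPM with DMSO to 22.4, 9.31 and 29.2 with daunorubicin and to 34.1, 8.71 and 13 with the combination (-1.50 ± 0.46, adjusted p = 0.017 and -1.62 ± 0.46, adjusted p = 0.0115).

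Of the kinetochore members 2 of 5 passed both thresholds with each treatment, of the entry regulators 4 of 11, of the spindle and cytokinesis proteins 3 of 8 and of the kinesins 1 of 7, and no test compared the roles. CENPF was at 311, 304 and 308 CPM with DMSO, 99.2, 23.9 and 128 with daunorubicin and 139, 9.48 and 57.5 with the combination (-1.88 ± 0.74, adjusted p = 0.0499 and -2.16 ± 0.74, adjusted p = 0.0289). CENPE was at 80.2, 73.9 and 80.1 CPM with DMSO, at 32.7, 5.03 and 36.2 with daunorubicin and at 45, 2.28 and 18.2 with the combination, and its changes did not pass (-1.66 ± 0.81, adjusted p = 0.103 and -1.83 ± 0.81, adjusted p = 0.0761). KIF20A was at 67.1, 68.2 and 60.7 CPM with DMSO, at 18.8, 3.84 and 29.5 with daunorubicin and at 33.3, 0.661 and 10.1 with the combination and did not pass either (-1.91 ± 0.88, adjusted p = 0.0879 and -2.14 ± 0.89, adjusted p = 0.0607). Both passed with both treatments once the replicate block was used, CENPE at -2.12 ± 0.65 and -2.44 ± 0.66 and KIF20A at -2.32 ± 0.82 and -2.76 ± 0.85. Both genes were lower in every treated library than in every DMSO library, and the treated replicates lay far from each other. The ratio of the highest to the lowest library reached 50.5 for DLGAP5 with the combination and 11.9 for UBE2C with daunorubicin, and its median over 49 members (SPC25, with 1 library at 0, left out) was 12.2 and 5.78. KIF11 was the kinesin that passed without the block, with daunorubicin (-1.74 ± 0.65, adjusted p = 0.0411) and with the combination (-1.97 ± 0.65, adjusted p = 0.0246). INCENP, the scaffold of the chromosomal passenger complex, passed with 99.7, 96.1 and 98.1 CPM with DMSO, 38, 20.9 and 47.4 with daunorubicin and 56.9, 17.4 and 23.4 with the combination (-1.47 ± 0.38, adjusted p = 0.00687 and -1.58 ± 0.38, adjusted p = 0.00442).

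These counts rested on single libraries. With daunorubicin the count past both thresholds was 3 without daunorubicin replicate 2, 7 without daunorubicin replicate 1, 4, 9 and 8 without DMSO replicates 1, 2 and 3, 13 without cytarabine replicate 1 or 3, and 35 and 39 without combination replicates 1 and 2. With the combination it was 48, 15 and 5 without combination replicates 1, 2 and 3, and 11, 13 and 13 without DMSO replicates 1, 2 and 3. Every log2 fold change of a member that passed kept its sign under each omission.

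Cytarabine left the members of MOLM13 cells without a call. By edgeR 0 of 50 fell at an adjusted p under 0.05 (17.8% of all genes were lower) and 0 by both thresholds (1.03% of all genes). At an unadjusted p under 0.05 there were 0 members, where 7180 of all 16184 genes passed, and 0 members passed by DESeq2. The fit shares one dispersion per gene over all 12 libraries, so that the spread in the other treated groups enters these errors. In 27 of 50 members every cytarabine library lay below every DMSO library, against 26.9% of all genes. In 6 members every cytarabine library lay above (26.5% of all genes), and 17 members overlapped. CDC20 had the largest difference, 79.4, 41.2 and 87 CPM against 162, 184 and 154 CPM with DMSO (-1.27 ± 0.88, adjusted p = 0.296), and PLK1 and CCNB1 were next (-0.82 ± 0.77 and -0.70 ± 0.70). CDC25C, at 20.7, 17.8 and 18.8 CPM against 12.2, 12.3 and 11.7 CPM, had the highest value (0.67 ± 0.78, adjusted p = 0.549), and NDC80 and CDK1 were next (0.37 ± 0.73 and 0.30 ± 0.82). Cytarabine replicate 2 was the lowest of its group for 41 of 50 members.

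Set directly against cytarabine, daunorubicin gave a negative log2 fold change for 50 of 50 members in MOLM13 cells (46.4% of all genes). The median was -1.51, against 0.04 over all genes. In 45 of 50 members every daunorubicin library lay below every cytarabine library, against 23.2% of all genes. The spread in all 12 libraries again enters the errors. At an adjusted p under 0.05, 5 members were lower (13.5% of all genes were lower), 4 of them by over 2-fold (3.65% of all genes), or 17 (4.08%) with the replicate block. Without the block these were FOXM1 (-2.03 ± 0.68, adjusted p = 0.0475), SGO1 (-1.71 ± 0.55, adjusted p = 0.0397), MAD2L1 (-1.47 ± 0.44, adjusted p = 0.0316) and INCENP (-1.28 ± 0.38, adjusted p = 0.0281), followed by TACC3, a spindle microtubule protein (-0.98 ± 0.30, adjusted p = 0.0355). FOXM1 was at 92.9, 102 and 95.4 CPM with cytarabine, close to its DMSO level and above every daunorubicin library. CDCA5 and AURKB had the lowest values (-2.08 ± 0.72, adjusted p = 0.0536 and -2.06 ± 0.79, adjusted p = 0.0751) and did not pass. The count past both thresholds was 0 without any 1 of the cytarabine libraries or without daunorubicin replicate 1 or 2, 2 without any 1 of the DMSO libraries, and 25 and 26 without combination replicates 1 and 2. For the combination against the sum of the single drugs, 0 members lay below (8.85% of all genes) and 0 above (9.99% of all genes) by edgeR. The count was also 0 at an unadjusted p under 0.05 (5237 of all 16184 genes) and 0 by DESeq2.

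**Figure D5:**
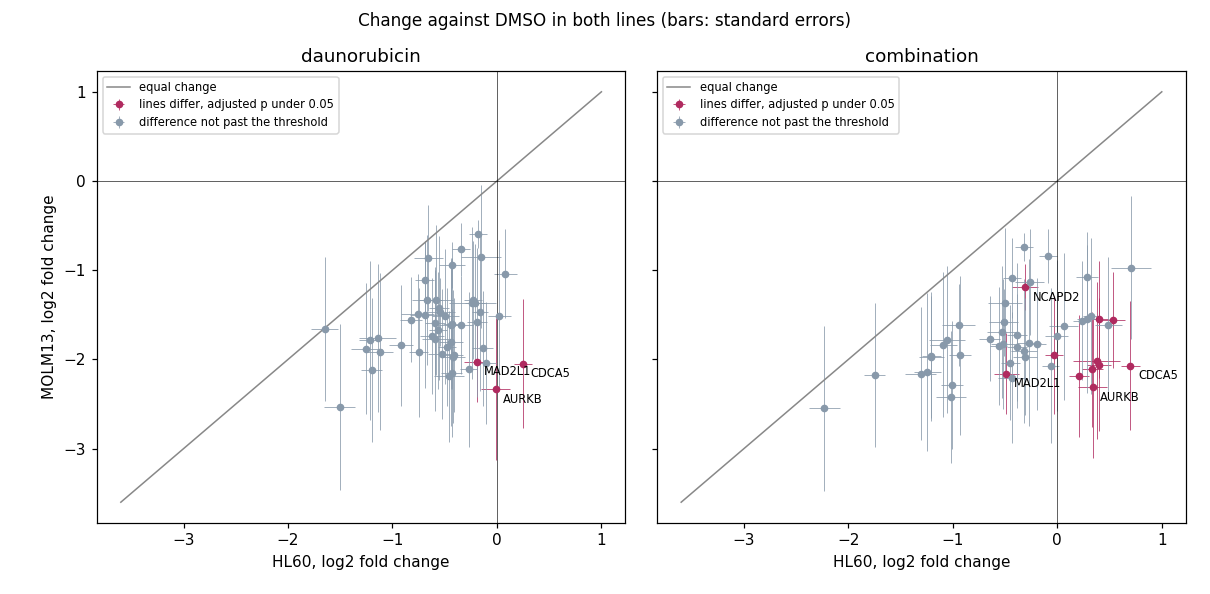
Log2 fold change of each member in MOLM13 (vertical axis) against HL60 cells (horizontal axis) with daunorubicin (left) and the combination (right), with standard errors as bars and magenta points where the lines differed at an adjusted p under 0.05. The points lie below the line of equal change, apart from CENPE with daunorubicin, which lies on it (-1.65 and -1.66), and CDCA5 is far to the right in both panels.

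The difference between HL60 and MOLM13 was tested itself, in a fit of all 24 libraries of both lines. It was negative for 50 of 50 members with daunorubicin (median -1.12, against -0.01 over all genes). The same held with the combination (median -1.42, against 0.02). At an adjusted p under 0.05 the MOLM13 change with daunorubicin was lower for 3 members (12.1% of all genes), AURKB (-2.33 ± 0.80, adjusted p = 0.0454), CDCA5 (-2.30 ± 0.74, adjusted p = 0.0329) and MAD2L1 (-1.84 ± 0.48, adjusted p = 0.0107). With the combination it was lower at this threshold for 11 members (15.1% of all genes), led by CDCA5 (-2.74 ± 0.74, adjusted p = 0.00859), AURKB (-2.62 ± 0.80, adjusted p = 0.0178) and NCAPG (-2.43 ± 0.77, adjusted p = 0.0225). CDCA5 moved in opposite directions: it rose to 315, 294 and 283 CPM in HL60 cells and fell from 102, 106 and 101 to 54.6, 4.74 and 14.2 CPM in MOLM13 cells. ESPL1, SPC25, FOXM1, SGO1, NUSAP1, PRC1 (a midzone microtubule bundler), MAD2L1 and NCAPD2 (a condensin subunit) were the others, with differences from -2.42 to -0.86. With cytarabine 0 members were lower in MOLM13 at an adjusted p under 0.05 (4.59% of all genes), and 0 passed by DESeq2. Past an unadjusted p of 0.05 in either direction were 0 members, and 3931 of all 17827 genes. CENPE, CDC20 and CENPF, the 3 largest falls of HL60 cells with daunorubicin, did not differ between the lines past the threshold with that drug (-0.02 ± 0.83, adjusted p = 1, -1.03 ± 0.94, adjusted p = 0.491 and -0.64 ± 0.77, adjusted p = 0.631), and the 95% interval of the CDC20 difference ran from -3.02 to 0.95. With the replicate block the counts were 13 with daunorubicin and 30 with the combination (17.2% and 18.8% of all genes). They also moved with single libraries. With daunorubicin the count was 1 without any 1 of HL60 DMSO 1, 2 or 3, HL60 daunorubicin 1 or 3, MOLM13 DMSO 2 or 3, or MOLM13 daunorubicin 1 or 2, and it was 6, 11 and 14 without MOLM13 daunorubicin 3, combination 2 and combination 1. With the combination it was 46, 7 and 6 without MOLM13 combination 1, 2 and 3, 19 without MOLM13 daunorubicin 2, and 7 without MOLM13 DMSO 3 or HL60 DMSO 3.

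In OCIAML3 cells 50, 49 and 50 of 50 members had a negative log2 fold change after cytarabine, daunorubicin and the combination. Of all genes 49%, 49% and 48.9% did, and 0 members passed with all libraries. By edgeR 0 of 50 fell past both thresholds in each comparison, where 0.0%, 0.0% and 0.0% of all genes were lower. At an unadjusted p under 0.05 the counts were 0, 39 and 38, where 255, 5086 and 3873 of all 16650 genes passed. By DESeq2, for which no share over all genes was counted, 20 members fell with daunorubicin and 2 with the combination at an adjusted p under 0.05, with 0 past both thresholds. The median log2 fold changes were -0.20, -0.47 and -0.48 in the same order. The library labelled cytarabine replicate 3 had a summed level of 4967 CPM, against 6307 and 6308 in the other cytarabine replicates, and the library labelled combination replicate 3 had 6003 CPM, against 3584 and 4936.

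Without these 2 libraries, 35 members fell with daunorubicin (16.0% of all genes were lower) and 42 with the combination (21.6%), and the median log2 fold changes were -0.47 and -0.67. With cytarabine the median was -0.093, against -0.20 with all libraries, and 47 of 50 members were negative (49.3% of all genes). Past both thresholds these were 1 (0.539% of all genes) and 3 (1.96%), with 0 of 50 for cytarabine at either threshold. SPC25 passed both thresholds with daunorubicin (-1.16 ± 0.32, adjusted p = 0.021) at 1.42, 1.11 and 2.62 CPM against 2.77, 4.02 and 4.68 CPM with DMSO. Leaving out combination replicate 3 alone gave the same counts, 1 and 3. With the combination SPC25 (-1.36 ± 0.37, adjusted p = 0.0135), BUB1B (-1.05 ± 0.14, adjusted p = 0.000685), a checkpoint kinase-like protein, and AURKB (-1.03 ± 0.15, adjusted p = 0.000984) passed both.

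The named members show how much these 2 libraries mattered. AURKB was at 68, 74.4 and 77.8 CPM with DMSO, 67.9, 67.1 and 42.9 under cytarabine, 37.2, 42.8 and 39.2 under daunorubicin and 28.1, 43.6 and 66 under the combination. BUB1B was at 123, 129 and 133 CPM with DMSO, at 119.6, 118 and 84 under cytarabine, at 64.5, 82 and 78.3 under daunorubicin and at 51.6, 72.4 and 114 under the combination. In both genes the library labelled cytarabine replicate 3 lay near the daunorubicin libraries and that labelled combination replicate 3 near the first 2 cytarabine libraries, and with daunorubicin all 3 libraries lay below DMSO. CDC20 was at 239.8, 245 and 213 CPM with DMSO and 147, 186 and 164 with daunorubicin (-0.49 ± 0.13, adjusted p = 0.0191 without the 2 libraries). PLK1 was at 247, 248 and 228 CPM with DMSO, against 149.6, 190.0 and 162 CPM with daunorubicin (-0.53 ± 0.12, adjusted p = 0.00847). AURKA was at 87.4, 94 and 89.4 CPM with DMSO and 87.2, 97.9 and 73.5 CPM with daunorubicin, so that the groups overlapped (-0.07 ± 0.12, adjusted p = 0.699), and HMMR, a spindle and hyaluronan-binding protein, likewise (0.01 ± 0.15, adjusted p = 0.958).

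Further genes of the mitotic machinery, a list of 116 outside the 50 in 7 groups, were counted in the same fits at an adjusted p under 0.05. In HL60 cells 49 of the 113 tested fell and 19 rose with cytarabine (22.0% and 23.6% of all genes), 38 fell and 3 rose with daunorubicin (9.14% and 12.8%), and 46 fell and 25 rose with the combination (25.3% and 28.1%). The shares that rose were below those of all genes with each treatment. In MOLM13 cells 81 of 115 fell and 8 rose with daunorubicin (25.7% and 26.9% of all genes) and 87 fell and 7 rose with the combination (26.0% and 27.0%). With cytarabine 20 fell, a share close to that of all genes, and 5 rose (17.8% and 17.1% of all genes). In OCIAML3 cells 0 passed with all libraries, and without the 2 libraries the counts were 76 lower and 4 higher with daunorubicin (16.0% and 15.3% of all genes) and 83 lower and 5 higher with the combination (21.6% and 20.1%). In HL60 cells with the combination, other kinetochore genes split into 6 lower and 12 higher, and the anaphase-promoting complex and its inhibitors into 12 lower and 3 higher. SKA1, which couples kinetochores to microtubules (1.33 ± 0.22, adjusted p = 0.000248), and CENPU, an inner kinetochore protein (1.13 ± 0.15, adjusted p = 4.03e-05), had the largest changes of the other kinetochore genes, both upward, and CDC27, a subunit of the anaphase-promoting complex, fell (-1.04 ± 0.12, adjusted p = 1.46e-05). SGO2, which protects centromeric cohesin, fell in the same comparison (-1.25 ± 0.17, adjusted p = 4.22e-05), whereas SGO1 among the members rose. In MOLM13 cells with daunorubicin the other kinetochore genes gave 21 lower of 26, with SKA3 and CENPA at -2.47 ± 0.76, adjusted p = 0.0172 and -2.22 ± 0.85, adjusted p = 0.0454. CDC25A, a phosphatase of the G1 to S and G2 to M steps, and MYBL2, the B-MYB factor that acts with MuvB at mitotic promoters, were at -2.61 ± 0.59, adjusted p = 0.00329 and -2.36 ± 0.74, adjusted p = 0.019.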

How the data were processed

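Unstranded paired-end RNA libraries of 36 cultures were quantified by the authors with Salmon 1.8.0 on GRCh38 transcripts, after quality checks with FastQC 0.11.9. The deposited tables hold, for each of 252199 transcripts, an estimated count that need not be whole and a TPM value, which the authors scaled for transcript length and library size. Here the estimated counts were summed per gene with GENCODE release 44 (235378 transcripts matched, 59041 genes; 16821 unmatched transcripts held 3.99% to 4.52% of the counts) and rounded to whole numbers. Genes were filtered with filterByExpr (minimum count 10, minimum total 15), which kept 15608, 16184 and 16650 genes in HL60, MOLM13 and OCIAML3, and each line's 12 libraries were fitted with edgeR 4.0.16 (quasi-likelihood test, TMM, Benjamini-Hochberg adjustment over all genes tested, R 4.3.3). Standard errors are the log2 fold change divided by the root of F. "Past both thresholds" means an adjusted p under 0.05 and an absolute log2 fold change over 1. The combination against the sum and the difference between lines used an adjusted p under 0.05 alone. The edgeR test of cytarabine against DMSO was run in each line on simulated counts, with and without known fold changes. The other comparisons and alternatives were not part of this simulation.

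Counting used no strand, and 19 members share exon bases with another gene (18 with one on the opposite strand) and 14 have named pseudogenes, so reads of these can be split or mixed. Any member could be named, with library values for 13 set members (CDK1, CCNB1, PLK1, AURKA, AURKB, CDC20, BUB1, CENPE, CENPF, KIF20A, FOXM1, UBE2C, PTTG1) and for the 3 largest changes in each direction of a comparison. Further genes were named when among the 2 largest changes of their group with at least 1 CPM. The members, lists and tests were chosen with earlier results of these data known. Alternatives were DESeq2, its size factors, no low-count filter, an offset for transcript length, a replicate block, other thresholds, and leaving out libraries. The 95% intervals used the t distribution on the residual degrees of freedom.

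Same-numbered HL60 libraries deviated together from their group means (correlations 0.265 to 0.563 over genes of at least 10 CPM, 0.0891 to 0.354 over all genes kept), and each correlated best with its own number. The 10 CPM limit was set after the values over all genes were seen and before any blocked calls were compared.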

Additional observations from a re-analysis of the deposited data

Results flagged for a closer look

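The response of 3 members to daunorubicin differed between MOLM13 and HL60 cells by the test of the difference itself (edgeR, adjusted p under 0.05), a smaller share than the 12.1% of all genes that were lower in MOLM13: AURKB by -2.33 ± 0.80 on the log2 scale (SE), CDCA5 by -2.30 ± 0.74 and MAD2L1 by -1.84 ± 0.48, all lower in MOLM13. The response to the combination differed for 11 members of 50, beside 15.1% of all genes, with the largest differences in CDCA5 (-2.74 ± 0.74), AURKB (-2.62 ± 0.80) and NCAPG (-2.43 ± 0.77), again lower in MOLM13. The difference was negative for 50 of 50 members with daunorubicin (median -1.12, against -0.01 over all genes). The same held with the combination (median -1.42, against 0.02). The median SD of log2 CPM between these MOLM13 replicates was 1.35 and 1.82 over the members, against 0.132 and 0.171 over all genes of at least 1 CPM. MOLM13 replicate 2 of both treatments had the lowest level of its group for 50 of 50 members. Without daunorubicin replicate 2 the counts were 1 and 19, and without combination replicate 2 they were 11 and 7, for daunorubicin and the combination.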

How the results depend on the processing

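Counts of members called moved by more than 1.5 times as follows. With an offset for transcript length, HL60 cytarabine went from 7 to 4 and the HL60 combination against the sum from 23 to 13. With no fold threshold, HL60 cytarabine, daunorubicin, combination and daunorubicin against cytarabine gave 32, 36, 37 and 15, and with a fold threshold added the HL60 combination against the sum gave 5. With no low-count filter, the MOLM13 combination gave 40, MOLM13 daunorubicin against cytarabine 17, and the line differences 12 (daunorubicin) and 28 (combination). In a fit of all 36 libraries the line differences were 5 and 23. Without both OCIAML3 libraries, OCIAML3 daunorubicin and combination gave 1 and 3. The causes were not tested.

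A fit with the replicate block gave 34 for MOLM13 daunorubicin, 44 for the MOLM13 combination, 17 for MOLM13 daunorubicin against cytarabine, and 13 and 30 for the line differences with daunorubicin and the combination. Over genes of at least 10 CPM the same-number correlations ran from -0.102 to 0.743 in MOLM13 and from -0.635 to 0.723 in OCIAML3. Of the pairs of groups compared there, all 3 correlations were over 0.1 for MOLM13 DMSO and daunorubicin (0.111 to 0.216, each library best with its own number, but 0.0199 to 0.0639 over all genes kept) and not for the others. They were also over 0.1 for OCIAML3 daunorubicin and combination (0.488 to 0.723), a pair not compared. In HL60 the replicate block moved no count past both thresholds, and at an adjusted p alone it moved the members higher with cytarabine from 3 to 6 and those higher with daunorubicin than with cytarabine from 2 to 5.

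Leaving out 1 library at a time gave 6 to 11 for HL60 cytarabine (11 without DMSO replicate 3), 11 to 22 for the HL60 combination against the sum, 3 to 39 for MOLM13 daunorubicin, 5 to 48 for the MOLM13 combination, 0 to 26 for MOLM13 daunorubicin against cytarabine, 0 to 1 for OCIAML3 daunorubicin, 0 to 3 for the OCIAML3 combination, and 1 to 14 and 6 to 46 for the line differences with daunorubicin and the combination. Over single members, called or not, and all alternatives, 14883 values kept their side of the threshold, 408 lost the call, 409 gained it and 0 called values changed sign. Values called in neither fit are among those kept, so the 408 losses stand against a much smaller number of called values. SPC25 had the lowest DMSO TPM of the members in MOLM13 and OCIAML3 and 1 MOLM13 library at 0 CPM.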
